A study of Mus musculus with 8 samples.

Results

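The IL-17, IL-20 and IL-22 axis was represented by 10 genes of cytokines and cytokine receptors, followed here in whole mouse skin with and without CD109, a glycosylphosphatidylinositol-anchored protein of the cell surface, before and after a single exposure to 7,12-dimethylbenz(α)anthracene (DMBA), a polycyclic hydrocarbon that damages DNA and initiates skin tumors. They were chosen as every probe whose transcript accession mapped to Il17a, Il17f, Il22, Il23a, Il19, Il20, Il24, Il20ra, Il20rb or Il22ra1, which gave 12 probes of the 55444 kept on the array and 10 of the 21084 genes that could be named. Il19 and Il22ra1 had 2 probes each. Total RNA from the skin of female mice was hybridised to 8 one-color arrays, with 2 arrays in each of 4 groups: CD109+/+ and CD109-/- skin taken 24 h after DMBA, and CD109+/+ and CD109-/- skin without DMBA. The last 2 groups are named untreated, although their labels also say that the skin received acetone, the solvent of DMBA. All animals were of the FVB/N background. The CD109+/+ mice were purchased and the CD109-/- mice, which lack the gene in the whole body, were bred onto that background, so that genotype and breeding history cannot be told apart. The age of the animals on the arrays, and whether an array held 1 animal or several, are not given in the sources used here, so p-values measure only the spread between these arrays.

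IL-17A and IL-17F are secreted by type 17 T cells, γδ T cells and innate lymphoid cells and act through the receptor pair IL-17RA and IL-17RC, for which keratinocytes and fibroblasts are main targets in skin. Interleukin-23, whose own subunit is encoded by Il23a, sustains those cells through the receptor encoded by Il23r, and interleukin-22 from the same cells signals to keratinocytes through IL-22RA1 and IL-10RB. IL-19, IL-20 and IL-24 are relatives of IL-10 that keratinocytes and myeloid cells make themselves and that signal through IL-20RA, IL-20RB and IL-22RA1 to STAT3; the axis is best known in skin for antimicrobial peptides, neutrophil-attracting chemokines and the activation keratins of wounded or psoriatic epidermis.

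Each signal is given as log2 of the scanner's processed signal minus the 75th percentile of the same array, so that 0 is the brightness of a probe at that percentile, and a signal that the scanner software did not flag as well above background counts as below detection. The dimmest probe flagged as well above background lay between -6.14 and -5.37 on the 8 arrays and was taken as the detection limit. Some unflagged signals lay above it, such as Il23a at -5.47 on CD109-/- replicate 1 after DMBA, where the limit was -5.71. A fold given as at least a value sets the mean of the detected group over the limit of the other arrays, or over an unflagged signal above it. Such folds are approximate, and a single array can lie nearer to the limit. Between 63.6% and 67.0% of spots were well above background on an array and none was saturated. Cd109, the targeted gene, went against the labels on 2 arrays. Its probe gave 1.09 and 1.68 in CD109+/+ skin after DMBA, and was below detection at -7.85 and -7.51 in CD109-/- skin after DMBA. In untreated skin, the array labelled CD109+/+ replicate 1 gave 2.29 but the array labelled CD109+/+ replicate 2 gave -6.27, below detection. The array labelled CD109-/- replicate 1 gave 1.90 and the array labelled CD109-/- replicate 2 gave -7.90, below detection. The sources used here do not say whether the deletion removes the stretch that the Cd109 probe reads. Groups are therefore kept as labelled, the differences of members printed below that rest on untreated skin are also given without these 2 arrays, and the 4 arrays with a Cd109 signal and the 4 without one are set side by side as a description. All DMBA arrays shared 1 row of the slide and all untreated arrays the other, so that position and treatment cannot be told apart.

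The members did not move as a block. The ligands Il17a and Il17f were detected mainly where Cd109 was not, Il19 and more weakly Il24 were bright in CD109+/+ skin after DMBA, Il20 was brightest on 2 untreated arrays, and Il22 and Il22ra1 held nearly the same signal on all 8 arrays. Of the 12 probes, 10 from 8 of the 10 genes were tested, having been detected on both arrays in 1 or more groups. In limma with Benjamini-Hochberg adjustment over 36904 probes, 0 of the 8 tested genes passed in any of the 5 comparisons, beside 0.0921% of all probes between genotypes after DMBA (0.0163% higher and 0.0759% lower in CD109-/- skin), 0.00542% between genotypes in untreated skin and 0.184% for DMBA in CD109+/+ skin (0.146% higher and 0.0379% lower). For DMBA in CD109-/- skin and for the difference between the 2 DMBA effects, 0 of 36904 probes passed, with 5279 and 5671 at an unadjusted p under 0.05. At an unadjusted limma p under 0.05 there were 4, 0, 2, 1 and 3 member genes in these 5 comparisons, beside 3975, 221, 2122, 1830 and 2338 of the 16757 genes tested. The methods' t-test gave 1, 0, 2, 0 and 1 member genes without adjustment and 0 with it. With 2 arrays a group, the number of arrays limits the precision of every difference below.

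**Figure D1:**
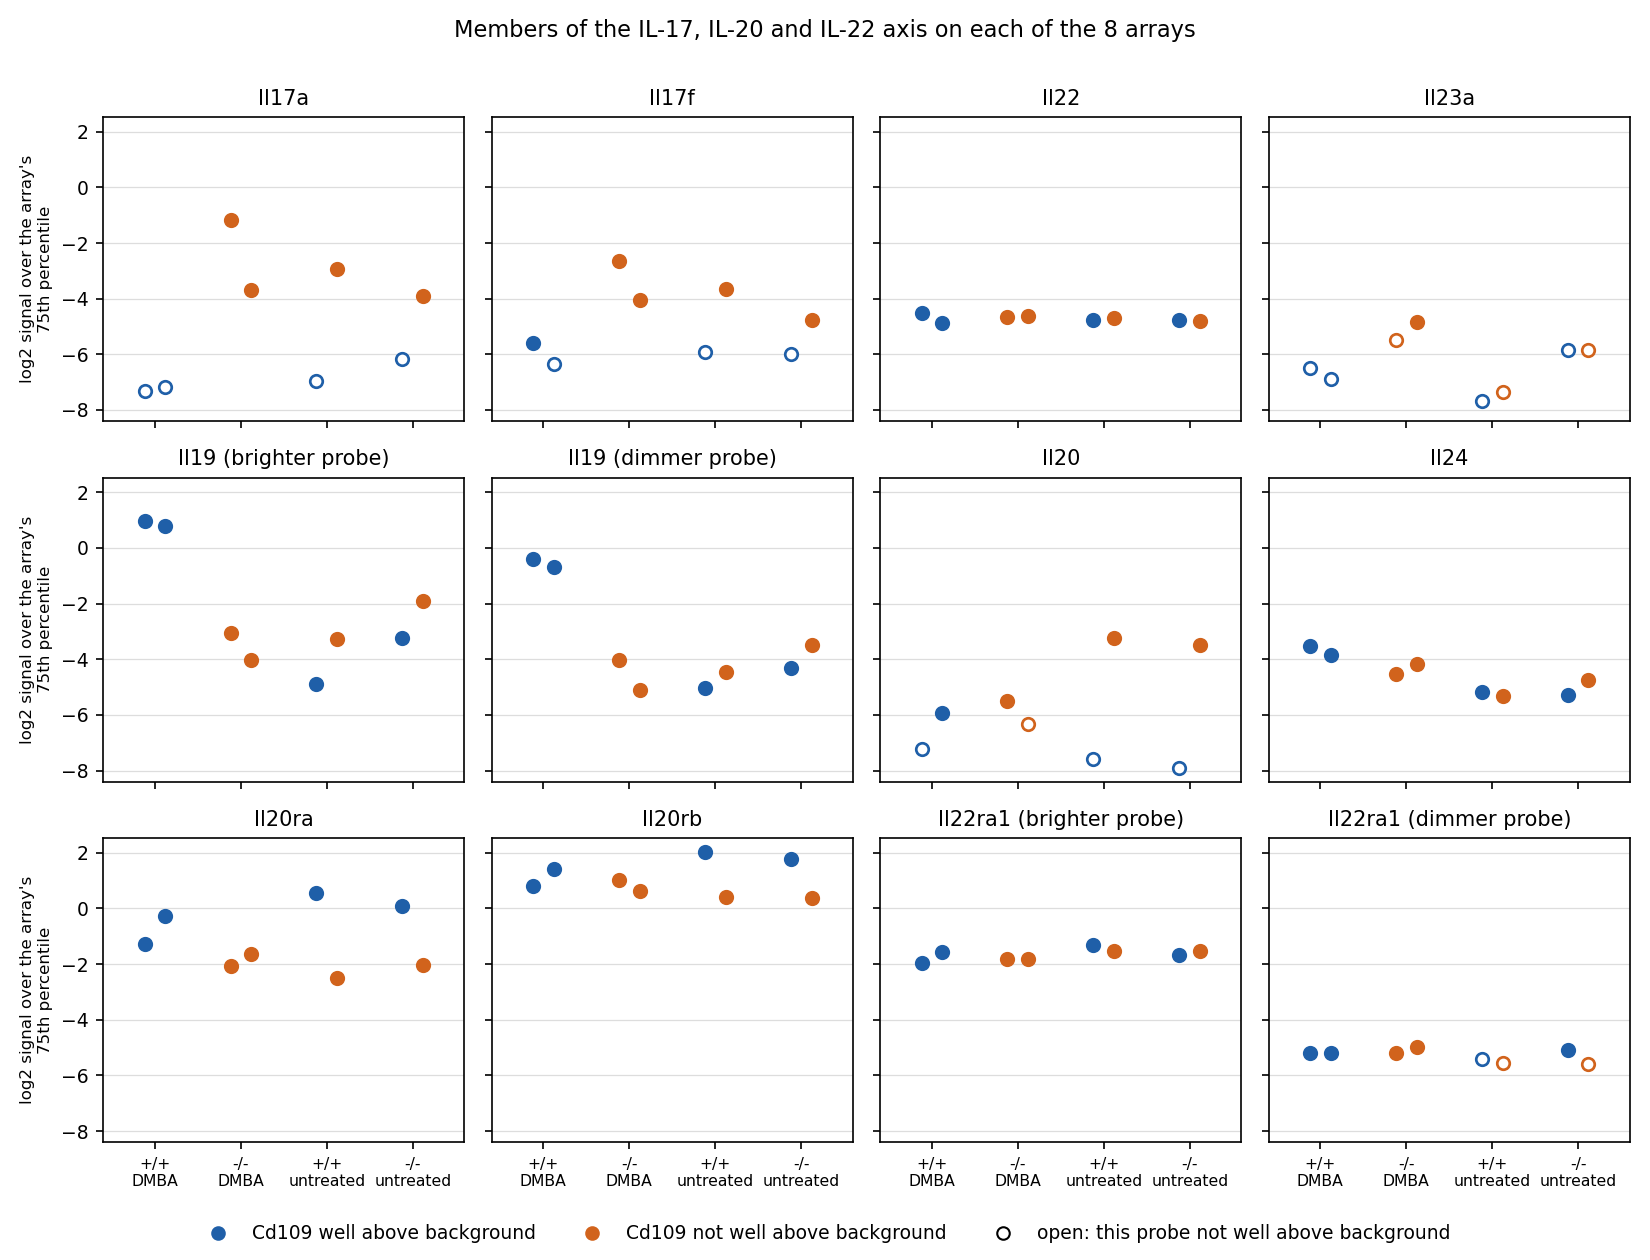
Log2 signal over the array's 75th percentile (y axis) of the 12 member probes on each of the 8 arrays, grouped on the x axis by labelled genotype and treatment with replicate 1 left and replicate 2 right. Points are single arrays, open where the probe was not well above background, blue where Cd109 was well above background and orange where it was not. Il17a and Il17f are highest on the orange arrays, and both Il19 probes stand at -0.69 or above only on the 2 CD109+/+ arrays after DMBA.

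Il17a, the founding cytokine of its family, was below detection in both CD109+/+ arrays after DMBA, at -7.32 and -7.17. In CD109-/- skin after DMBA it was detected on both arrays, at -1.18 and -3.69. The 2 groups did not overlap, and the spread was far wider in CD109-/- skin (mean ± SD of both arrays, -2.44 ± 1.78) than in CD109+/+ skin (-7.24 ± 0.10). Since it was below detection in CD109+/+ skin, the difference is given against the detection limit. By the mean of its 2 arrays, CD109-/- skin was at least 12.5-fold higher, but the array at -3.69 lay nearer to the limit. The fitted log2 fold change was 4.81 (SE 1.54, adjusted p = 0.138, limma). In untreated skin Il17a was detected at -2.95 on the array labelled CD109+/+ replicate 2 and at -3.92 on CD109-/- replicate 2 as labelled, and was below detection at -6.97 and -6.15 on the array of each genotype that is labelled replicate 1. Each labelled genotype thus held 1 array with Il17a and 1 without, and the fitted difference of -0.07 (SE 1.54, adjusted p = 1.00, limma) had no direction.

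Il17f, whose product pairs with interleukin-17A in a heterodimer, was likewise highest on the 4 arrays without a Cd109 signal, at lower contrast. After DMBA it was -5.59 and -6.35 in CD109+/+ skin, the second below detection, and -2.66 and -4.03 in CD109-/- skin, both detected. The CD109-/- arrays were higher by 2.62 on the log2 scale (SE 0.893, adjusted p = 0.151, limma) with no overlap. In untreated skin it was detected at -3.66 on the array labelled CD109+/+ replicate 2 and at -4.76 on the array labelled CD109-/- replicate 2, and below detection at -5.93 and -6.00 on the other two. Over the 8 arrays, Il17a lay between -3.92 and -1.18 on the 4 arrays without a Cd109 signal and between -7.32 and -6.15 on the 4 with one. Il17f lay between -4.76 and -2.66 and between -6.35 and -5.59 on the same arrays. Neither gene overlapped between the 2 sets of arrays, which held for 2 of the 10 tested member probes in this direction, beside 13.1% of all 36904 probes.

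Without the 2 arrays whose Cd109 signal goes against the label, both genes were below detection on the 1 remaining untreated CD109+/+ array and detected on the 1 remaining untreated CD109-/- array, at least 3.32-fold higher for Il17a and at least 1.86-fold higher for Il17f. The fitted differences were 3.06 (SE 1.27, adjusted p = 0.437, limma) and 1.17 (SE 0.810, adjusted p = 0.590), with the spread taken from the DMBA groups. In the same fit the adjusted p after DMBA was 0.0825 for Il17a and 0.0896 for Il17f. Over all limma alternatives the adjusted p of the DMBA comparison ranged from 0.0825 to 0.418 for Il17a and from 0.0764 to 0.456 for Il17f. DMBA against untreated CD109-/- skin gave log2 fold changes of 2.60 for Il17a (SE 1.54, adjusted p = 0.463, limma) and 2.03 for Il17f (SE 0.893, adjusted p = 0.369), and without the 2 arrays 1.48 and 1.41.

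Il17a and Il17f are neighbors on chromosome 1, with no other protein-coding gene between them in RefSeq. Their promoters are shown because both genes were brightest on the 4 arrays without a Cd109 signal. The sequences are the 250 bases before each RefSeq start in the GRCm38.p6 reference, which is not of the FVB/N strain, read 5′ to 3′ in the direction of the gene, at chr1:20730655-20730904 on the plus strand for Il17a and chr1:20784271-20784520 on the minus strand for Il17f. Capitals mark matches on either strand to TGANTCA, the AP-1 site, to TTCNNNGAA, the STAT site, to TATAAA, the TATA box, and to the NF-kB consensus, and no 2 matches overlapped.
Il17a: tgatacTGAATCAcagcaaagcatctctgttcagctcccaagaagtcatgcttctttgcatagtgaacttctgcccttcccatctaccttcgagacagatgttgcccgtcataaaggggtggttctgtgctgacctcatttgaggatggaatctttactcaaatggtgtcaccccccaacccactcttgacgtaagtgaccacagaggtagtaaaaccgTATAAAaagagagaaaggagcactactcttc
Il17f: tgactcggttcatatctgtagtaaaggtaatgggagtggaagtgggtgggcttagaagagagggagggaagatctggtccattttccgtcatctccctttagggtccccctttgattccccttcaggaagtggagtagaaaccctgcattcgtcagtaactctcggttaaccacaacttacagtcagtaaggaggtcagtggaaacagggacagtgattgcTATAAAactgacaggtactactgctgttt
Both windows held 1 TATA box, at 31 to 26 bases before the start in Il17a and at 29 to 24 bases in Il17f. Il17a alone held an AP-1 match, at 244 to 238 bases. Of the 32851 RefSeq promoter windows of the same length, 12.4% held the TATA box, 6.75% the AP-1 site, 7.02% the STAT site and 3.9% the NF-kB consensus. These are matches of letters and not sites shown to be bound in these skins.

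The genes with the profile nearest to that of Il17a over the 8 arrays, by the root mean square difference of centered log2 signals among probes detected wherever Il17a was, were Cd163l1 (0.57), 5830411N06Rik (0.67) and Zp1 (0.71). Those nearest to Il17f were Podnl1 (0.25), Aadacl3 (0.38) and Ptgdr2 (0.39). On the arrays where a member was below detection these distances rest on signals near the background.

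Il23a, the subunit that sets interleukin-23 apart from interleukin-12, was detected on 1 array only, CD109-/- replicate 2 after DMBA, at -4.86. The other CD109-/- array after DMBA gave -5.47 and the CD109+/+ arrays gave -6.51 and -6.90, all below detection. The 4 untreated arrays lay between -7.68 and -5.83, below detection. The probe was not tested and no fold is given.

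Il22 was well above background on all 8 arrays and spanned only 0.39 on the log2 scale, from -4.89 to -4.50, both ends of which were CD109+/+ arrays after DMBA. Its probe is uncertain because Iltifb, a near-identical copy, lies next to it on chromosome 10, and transcripts of both may bind it. Il22ra1, the keratinocyte receptor chain for interleukin-22, was as flat: its brighter probe ran from -1.94 to -1.32 and its dimmer probe from -5.60 to -4.97, the latter below detection on 3 untreated arrays. Each of these 3 probes thus varied by less than 1 on the log2 scale over all groups. None of their differences between groups passed, and most changed sign with the processing or the array left out. Over the limma alternatives, DMBA in CD109+/+ skin kept its sign on the dimmer (0.076 to 0.48) and brighter (-0.51 to -0.019) Il22ra1 probe. The untreated difference of the brighter one also did (-0.26 to -0.0087).

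Il19, which keratinocytes and myeloid cells release early in inflammation, had the widest difference between the 2 DMBA groups among the members detected on all 8 arrays. Its brighter probe gave 0.97 and 0.79 in CD109+/+ skin after DMBA and -3.05 and -4.04 in CD109-/- skin after DMBA. Its dimmer probe gave -0.41 and -0.69 against -4.03 and -5.12. On both probes the 2 CD109+/+ arrays were close to each other and stood above both CD109-/- arrays. The log2 fold change of CD109-/- over CD109+/+ was -4.42 (SE 0.691, adjusted p = 0.0870, limma) on the brighter probe and -4.02 (SE 0.462, adjusted p = 0.0735) on the dimmer, neither of which passed the threshold of 0.05.

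In untreated skin the brighter Il19 probe gave -4.91 and -3.29 on the arrays labelled CD109+/+ and -3.23 and -1.91 on those labelled CD109-/-. The dimmer probe gave -5.05 and -4.47 against -4.32 and -3.50. All 4 untreated arrays were thus far below CD109+/+ skin after DMBA and overlapped CD109-/- skin after DMBA. The arrays labelled CD109-/- were above those labelled CD109+/+ on both probes, by 1.53 (SE 0.691, adjusted p = 1.00, limma) and 0.85 (SE 0.462, adjusted p = 1.00), and by 2.996 and 1.54 without the 2 doubted arrays. DMBA over untreated in CD109+/+ skin was 4.98 on the log2 scale (SE 0.691, adjusted p = 0.0957, limma) on the brighter probe and 4.21 (SE 0.462, adjusted p = 0.0536) on the dimmer. In CD109-/- skin it was -0.97 (SE 0.691, adjusted p = 0.522) and -0.66 (SE 0.462, adjusted p = 0.517). The test of the difference between these 2 DMBA effects gave -5.95 (SE 0.977, adjusted p = 0.249, limma) and -4.87 (SE 0.653, adjusted p = 0.198).

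Without the 2 doubted arrays the genotype difference of Il19 after DMBA was the same by construction, the differences that involve untreated skin were larger, and none was called. DMBA over untreated in CD109+/+ skin was 5.79 (adjusted p = 0.135, limma) and 4.50 (adjusted p = 0.170), in CD109-/- skin it was -1.63 (adjusted p = 0.405) and -1.07 (adjusted p = 0.585), and the difference between the effects was -7.42 (adjusted p = 0.263) and -5.57 (adjusted p = 0.271). The adjusted p between genotypes after DMBA was 0.0640 and 0.0676. Il19 passed under other settings. With normexp background correction the genotype difference after DMBA was -2.94 (adjusted p = 0.0258, limma) and -2.21 (adjusted p = 0.0133) and the DMBA difference in CD109+/+ skin 3.31 (adjusted p = 0.0152) and 2.46 (adjusted p = 0.00893). With each array centered on its median only the dimmer probe passed, at -4.35 (adjusted p = 0.0463) and 4.36 (adjusted p = 0.0478). With the replicate number as a block, both probes passed between genotypes after DMBA (adjusted p = 0.0471 on the brighter and 0.0462 on the dimmer). Over all limma alternatives the adjusted p for the dimmer probe ranged from 0.0133 to 0.366 between genotypes after DMBA and from 0.00893 to 0.395 for DMBA in CD109+/+ skin. For the brighter probe the ranges were 0.0258 to 0.397 and 0.0152 to 0.559.

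The nearest profiles to Il19 over the 8 arrays were those of Clec4e, Gm5150 and Il6 for the dimmer probe (0.38, 0.39 and 0.40) and of Clec4e, Acod1 and Il6 for the brighter (0.60, 0.71 and 0.74). Il24, which lies in the same cluster on chromosome 1 in the order Il24, Il20, Il19 and Il10, was detected on every array. It gave -3.54 and -3.84 in CD109+/+ skin after DMBA, -4.53 and -4.17 in CD109-/- skin after DMBA, -5.18 and -5.34 in untreated CD109+/+ skin and -5.28 and -4.73 in untreated CD109-/- skin. Like Il19 it was highest in CD109+/+ skin after DMBA, but CD109-/- skin after DMBA came next, above all 4 untreated arrays. DMBA over untreated was 1.57 in CD109+/+ skin (SE 0.257, adjusted p = 0.140, limma) and 0.66 in CD109-/- skin (SE 0.257, adjusted p = 0.338), both with no overlap, and CD109-/- over CD109+/+ after DMBA was -0.66 (SE 0.257, adjusted p = 0.181). Without the 2 doubted arrays the DMBA differences were 1.49 (adjusted p = 0.214) and 0.39 (adjusted p = 0.721).

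Il20, between Il24 and Il19 on the chromosome, had another pattern and was not tested because no group had it detected on both arrays. It was brightest in untreated skin on CD109+/+ replicate 2, at -3.24, and on CD109-/- replicate 2, at -3.48, as labelled, both of them without a Cd109 signal. The other 2 untreated arrays were at -7.57 and -7.91, below detection. After DMBA it was -7.24 and -5.93 in CD109+/+ skin and -5.49 and -6.32 in CD109-/- skin, with 1 array of each pair below detection. Both bright arrays were above all 4 DMBA arrays. Its nearest profiles were those of Pramel13 (0.72), Wif1 (0.76) and Fbn2 (0.77).

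The promoters of Il19 and Il20 are shown because these neighbors differed in which arrays they were bright on. Windows, reference and marks are as above, at chr1:130940116-130940365 for Il19 and chr1:130911297-130911546 for Il20, both on the minus strand.
Il19: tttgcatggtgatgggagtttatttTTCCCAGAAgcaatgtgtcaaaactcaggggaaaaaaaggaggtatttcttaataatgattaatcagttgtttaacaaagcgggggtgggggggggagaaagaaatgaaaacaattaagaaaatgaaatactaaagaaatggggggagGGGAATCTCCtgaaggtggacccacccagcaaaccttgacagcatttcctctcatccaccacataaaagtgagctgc
Il20: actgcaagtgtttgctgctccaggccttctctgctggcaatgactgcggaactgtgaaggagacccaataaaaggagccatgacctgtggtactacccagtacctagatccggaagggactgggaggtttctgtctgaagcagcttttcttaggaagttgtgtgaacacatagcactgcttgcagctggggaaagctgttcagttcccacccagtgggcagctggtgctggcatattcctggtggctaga
The Il19 window held 1 STAT match, at 225 to 217 bases before the start, and 1 match to the NF-kB consensus, at 77 to 68 bases. The Il20 window held no match to any of these motifs, which says only that these letters are not in it.

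The receptor chains of the IL-20 subfamily were detected on every array. Il20ra gave -1.27 and -0.29 in CD109+/+ skin after DMBA, -2.05 and -1.64 in CD109-/- skin after DMBA, 0.55 and -2.51 in untreated skin labelled CD109+/+ and 0.07 and -2.02 in untreated skin labelled CD109-/-. Its range was -1.27 to 0.55 where Cd109 was detected and -2.51 to -1.64 where it was not, with no overlap, as 1 of the 10 tested member probes did in this direction beside 14.1% of all probes. The genotype difference after DMBA was -1.07 (SE 1.13, adjusted p = 0.555, limma). In untreated skin it was 0.00 (SE 1.13, adjusted p = 1.00) with all arrays and -2.57 (SE 0.569, adjusted p = 0.258) without the 2 doubted arrays. Gm10639 (0.30), Ccn2 (0.33) and Myh11 (0.34) had the profiles nearest to it.

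Il20rb, the partner chain that all 3 IL-20 subfamily ligands need, gave 0.81 and 1.40 in CD109+/+ skin after DMBA and 1.03 and 0.63 in CD109-/- skin after DMBA. Untreated, it gave 2.02 and 0.41 on the arrays labelled CD109+/+ and 1.78 and 0.39 on those labelled CD109-/-. The genotypes overlapped under both treatments, and the 2 highest signals were those of untreated arrays with Cd109. The genotype difference in untreated skin was -0.13 (SE 0.671, adjusted p = 1.00, limma) with all arrays and -1.64 (SE 0.413, adjusted p = 0.289) without the 2 doubted arrays.

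Counts of members whose groups did not overlap were near those of the array as a whole. Between genotypes after DMBA, 3 of the 10 tested probes were higher on both CD109-/- arrays and 4 lower, beside 38.3% and 32.9% of all probes. For DMBA in CD109+/+ skin, 4 were higher and 2 lower, beside 25.6% and 23.7%. For DMBA in CD109-/- skin 4 were higher and 1 lower, beside 27.5% and 16.7%, and between the labelled genotypes in untreated skin 2 were higher and 1 lower, beside 7.41% and 10.8%.

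**Figure D2:**
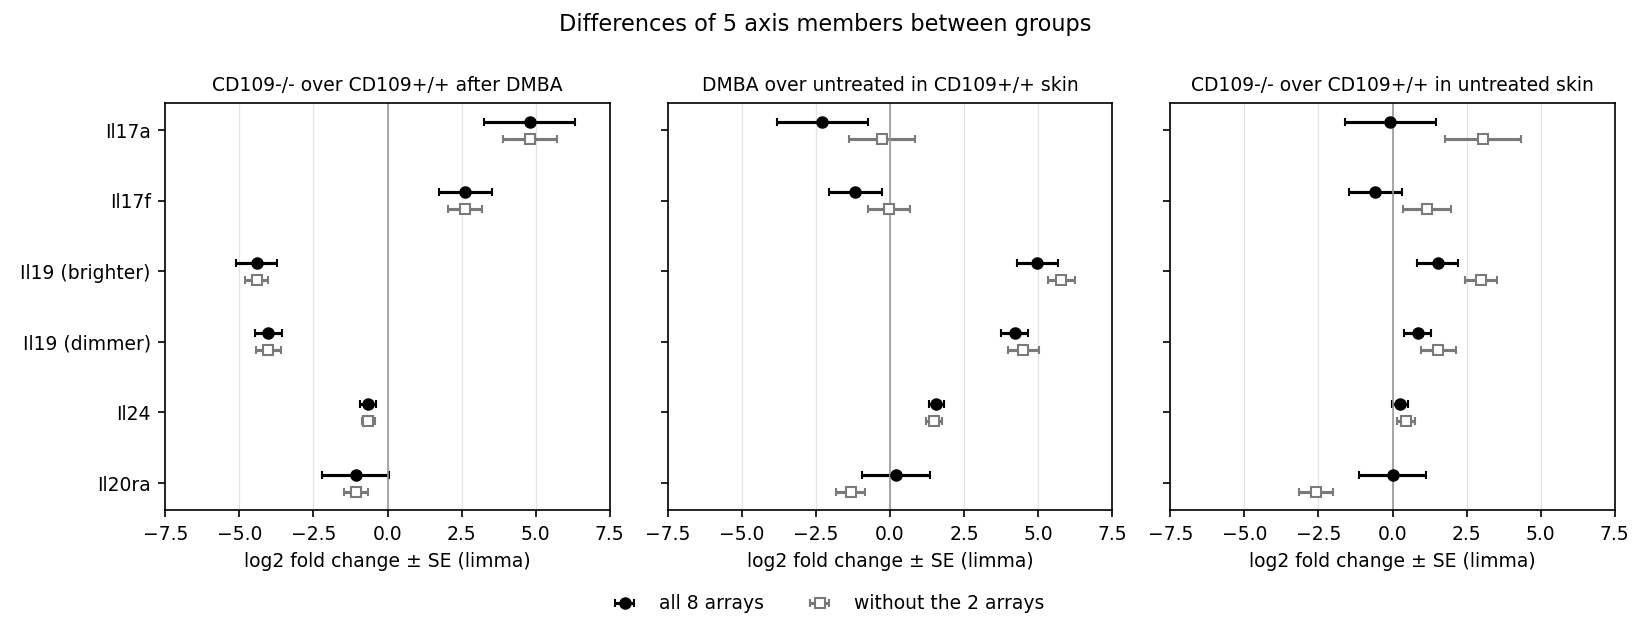
Log2 fold change (x axis, points) with its standard error (bars) from limma for the 6 probes of Il17a, Il17f, Il19, Il24 and Il20ra (y axis) in 3 comparisons, with all 8 arrays (black circles) and without the 2 untreated arrays whose Cd109 signal goes against their label (open squares). After DMBA Il17a and Il17f lie at 4.81 and 2.62 and Il19 at -4.42 and -4.02 in both fits, while in untreated skin Il20ra moves from 0.00 to -2.57.

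Marker genes of other structures moved with the arrays on which Il17a and Il17f were detected. Of the 14 genes listed for the growing hair follicle, 13 had a probe, and their summed signal was 606 to 2995 times the array's 75th percentile on the 4 arrays without a Cd109 signal and 2.19 to 2.56 times on the 4 with one. All 13 were well above background on each of the first 4 arrays and 8 or 9 on each of the others, where Shh, Krt25, Krt33b and Krt34 were below detection on all 4. The summed signal of 7 skeletal muscle genes was 261 to 467 on the arrays without a Cd109 signal and 672 to 1141 on those with one, and that of 9 macrophage and dendritic cell genes was 65.4 to 150 against 191 to 290. The sum of 8 innate lymphoid and natural killer cell genes was 31.3 to 43.4 against 15.2 to 29.8, but its 2 brightest genes, which other skin cells also express, set that sum: Gata3 at 4.30 to 5.07 against 2.93 to 4.23, and Id2 at 2.66 to 3.13 against 2.52 to 2.80. The natural killer cell receptors Ncr1, at -4.13 to -3.79 against -3.77 to -2.41, and Klrd1, at -2.45 to -1.43 against -1.23 to -0.43, were lower where Cd109 was not detected. Such a split without overlap in this direction was shown by 14.1% of all probes. Klrk1 was detected on 0 of 4 against 4 of 4 arrays, but its signals overlapped. The other listed genes, Klrb1c, Il7r and Il2rb, overlapped as well. Gata3, Id2, Ncr1, Klrd1 and Klrk1 were named after their values were seen. The 12 T cell genes summed to 44.6 to 82.0 against 53.4 to 67.1, and 11 or 12 were detected on every array. The part of hair growth or of muscle, macrophage or innate lymphoid content in the Il17a, Il17f, Il20 and Il20ra signals was not tested, and in whole skin fewer cells of a type and less RNA per cell cannot be told apart. Keratinocyte markers were detected on all arrays, 10 of 10 genes on each.

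**Figure D3:**
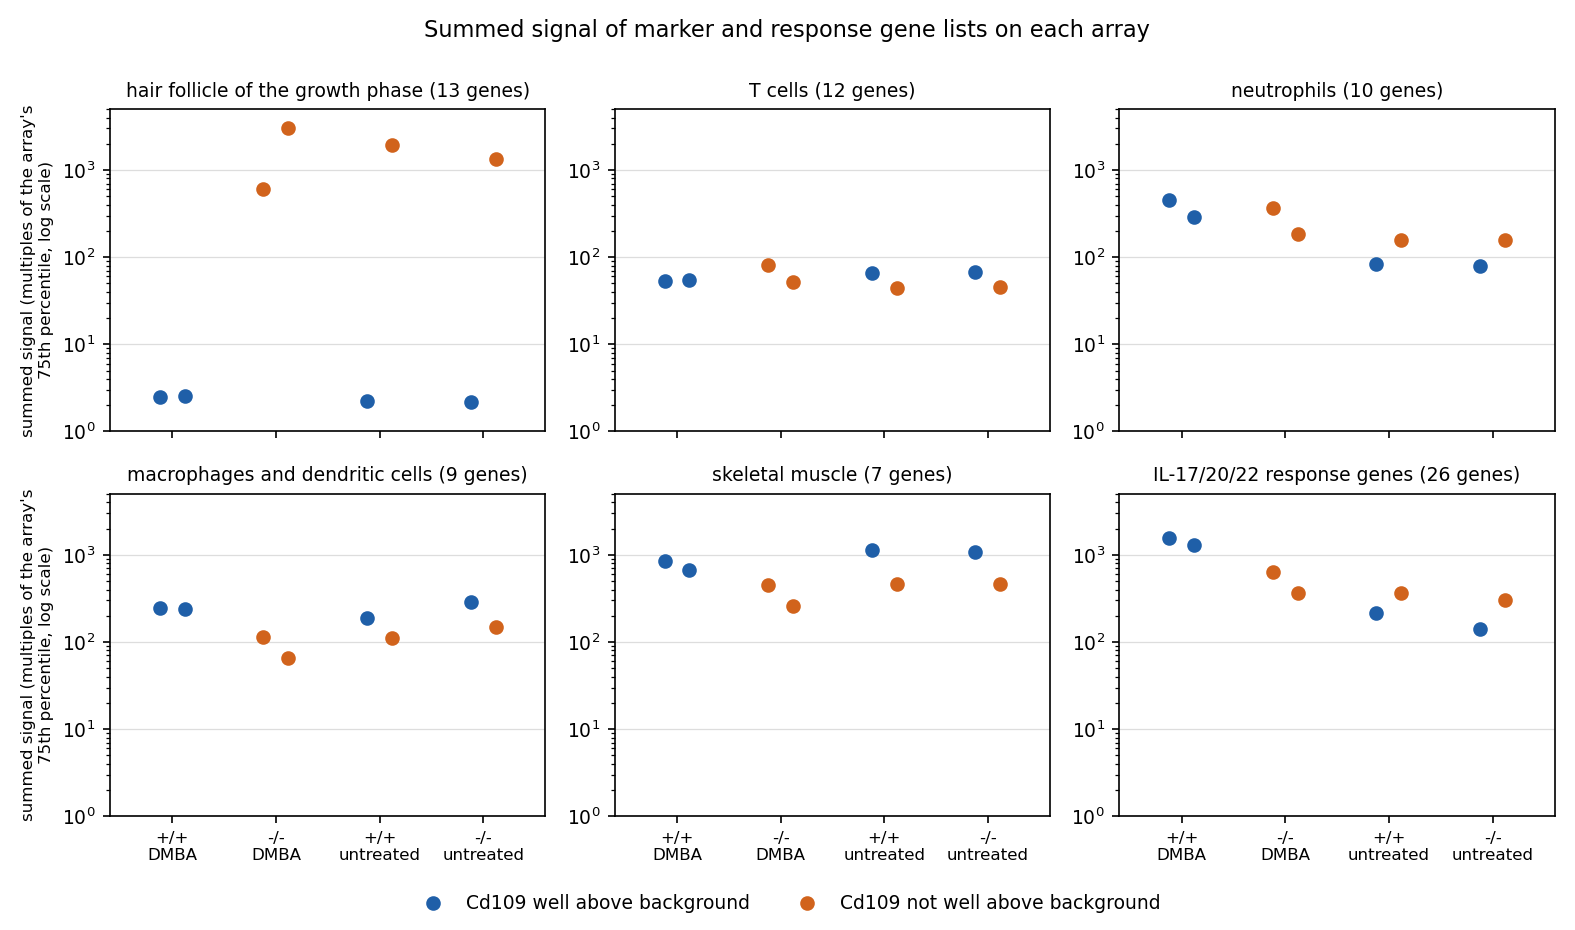
Summed signal of the genes of 6 lists on each array, in multiples of the array's 75th percentile on a log scale (y axis), by labelled genotype and treatment (x axis), with arrays colored by their Cd109 signal. The growing hair follicle list lies at 606 or above on the 4 arrays without a Cd109 signal and at 2.56 or below on the 4 with one, and the response genes of the axis are highest, at 1286 and 1556, in CD109+/+ skin after DMBA.

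Of 13 further ligands, receptors and signaling genes of the IL-17 family, 12 were tested and 0 were called in any comparison, beside 0.0955% of the 16757 genes between genotypes after DMBA (0.00597% higher and 0.0895% lower) and 0.00597%, all lower, in untreated skin. After DMBA their median log2 fold change was 0.16 against -0.05 for all genes. Il17ra, the receptor chain shared by both IL-17 ligands, gave -0.03 and 0.07 in CD109+/+ skin after DMBA and -0.62 and -0.95 in CD109-/- skin after DMBA, a difference of -0.80 (SE 0.206, adjusted p = 0.113, limma). Il25, a ligand of type 2 responses that was below detection in CD109+/+ skin after DMBA, was at least 2.33-fold higher in CD109-/- skin, with a fitted difference of 1.84 (SE 0.768, adjusted p = 0.199). Of the 11 IL-23 partners and type 17 lymphocyte genes, 10 were tested and 0 were called, and no probe matched Il12b.

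Il23r, the receptor through which interleukin-23 acts on IL-17-producing cells, was below detection at -6.31 and -6.08 in CD109+/+ skin after DMBA. It was detected at -2.32 and -3.96 in CD109-/- skin after DMBA, at least 7.52-fold higher, with a fitted difference of 3.05 (SE 0.765, adjusted p = 0.111, limma). Over the 8 arrays it lay between -4.14 and -2.32 on the 4 arrays without a Cd109 signal and between -6.31 and -4.98 on the 4 with one. These sets did not overlap, as for Il17a and Il17f and for 13.1% of all probes in this direction. Unlike Il17a, Il23r was detected on 2 of the 4 arrays with a Cd109 signal, both untreated, at -5.30 and -4.98. Il1r1, the interleukin-1 receptor, differed by -0.97 between genotypes after DMBA (SE 0.167, adjusted p = 0.0916, limma).

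All 10 receptor and signaling genes of the IL-10 family other than the members were tested, and 0 were called. Between genotypes after DMBA their median log2 fold change was -0.86 and 0 of 10 had a positive one, beside 7752 of the 16757 genes tested. Socs3, the inhibitor that STAT3 induces, gave 3.62 and 3.64 in CD109+/+ skin after DMBA, 2.30 and 2.16 in CD109-/- skin after DMBA and 2.67 to 2.82 in the 4 untreated skins. The CD109+/+ skins after DMBA were above and the CD109-/- skins after DMBA below every untreated one, with a difference of -1.40 (SE 0.152, adjusted p = 0.0693, limma). Il10ra, a chain of the interleukin-10 receptor, differed by -1.39 (SE 0.404, adjusted p = 0.123).

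The genes that keratinocytes are known to switch on in answer to these cytokines had their highest summed signal in CD109+/+ skin after DMBA, at 1556 and 1286, where Il19 was bright and Il17a was below detection. That sum was set mainly by its brightest genes, with Krt6b at 8.83, Krt16 at 8.43 and S100a9 at 8.09 on CD109+/+ replicate 1 after DMBA. Of the 26 listed, all had a probe and 24 were tested. For DMBA in CD109+/+ skin 1 was called higher, beside 0.179% of the 16757 genes tested (0.0119% were called lower and 0.191% in either direction), 21 of 24 had a positive log2 fold change and the median was 2.28 against 0.02 for all genes. Between genotypes after DMBA 0 were called, beside the 0.0955% given above, 4 of 24 were positive and the median was -1.76 against -0.05. Of the 24, 12 had an unadjusted limma p under 0.05 in that comparison, beside 3975 of the 16757 genes tested.

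Krt16, an activation keratin of hyperproliferative epidermis, was the gene called. It gave 8.43 and 8.30 in CD109+/+ skin after DMBA, 5.22 and 4.85 in CD109-/- skin after DMBA, 5.19 and 4.63 in untreated skin labelled CD109+/+ and 3.50 and 4.40 in untreated skin labelled CD109-/-. It rose by 3.45 on the log2 scale with DMBA in CD109+/+ skin (SE 0.358, adjusted p = 0.0462, limma), and the call was lost without the 2 doubted arrays (3.17, adjusted p = 0.129). CD109-/- over CD109+/+ after DMBA was -3.33 (SE 0.358, adjusted p = 0.0679). Mmp13, a collagenase of injured skin, gave -0.51 and -1.01 in CD109+/+ and -4.68 and -4.50 in CD109-/- skin after DMBA, a difference of -3.83 (SE 0.424, adjusted p = 0.0700).

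Single response genes, named after their values were seen, went with Il19 or with Il17a, and others with neither. The neutrophil-attracting chemokine Cxcl5 gave 2.24 and 1.89 in CD109+/+ skin after DMBA and -4.56 and -3.37 in CD109-/- skin after DMBA, a difference of -6.03 (SE 1.23, adjusted p = 0.104, limma). Its untreated signals were -6.93 and -5.12 on the arrays labelled CD109+/+, the first below detection, and -6.91 and -3.36 on those labelled CD109-/-, again with the first below detection. S100a7a, which encodes mouse psoriasin, instead lay between -3.15 and 0.13 on the 4 arrays without a Cd109 signal and between -7.63 and -4.87 on the 4 with one, of which 1 was above detection. Such a split without overlap in this direction was shown by 13.1% of all probes. The genotype difference of S100a7a after DMBA was 3.74 (SE 2.74, adjusted p = 0.398, limma). The chemokine Ccl20, a classical target of interleukin-17, was below detection on all 8 arrays. S100a8 gave 6.63 and 5.77 in CD109+/+ and 6.27 and 4.12 in CD109-/- skin after DMBA. Lcn2 gave 3.32 and 2.45 against 2.94 and 1.38. Both overlapped between genotypes after DMBA, and between the arrays with and without a Cd109 signal.

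**Figure D4:**
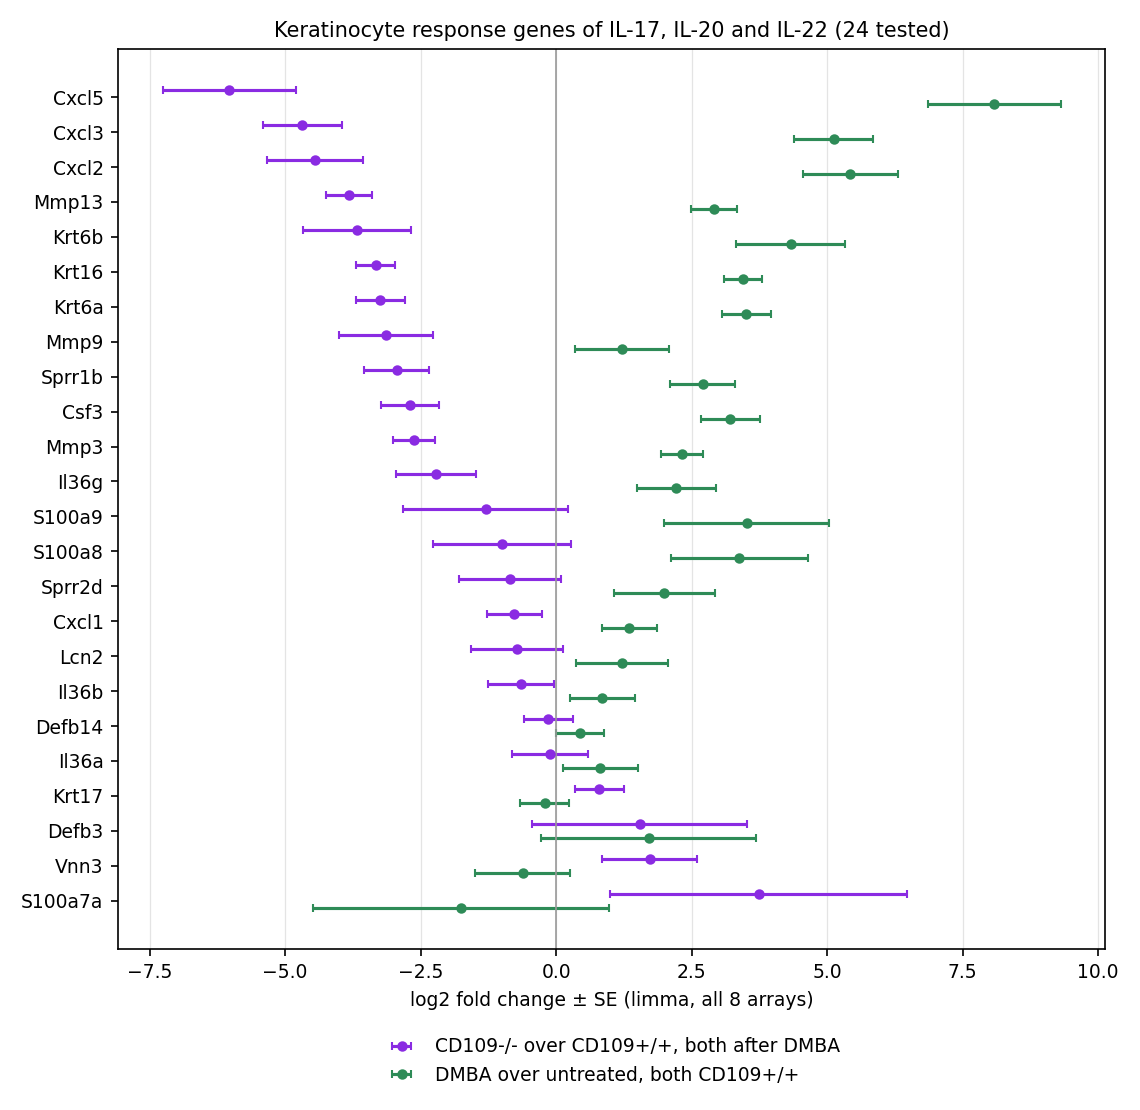
Log2 fold change (x axis, points) with its standard error (bars) from limma with all 8 arrays for the 24 tested response genes (y axis), for CD109-/- over CD109+/+ skin after DMBA (purple) and DMBA over untreated in CD109+/+ skin (green). The 2 comparisons share the CD109+/+ arrays after DMBA. Cxcl5 lies farthest out, at -6.03 and 8.08, and S100a7a lies at 3.74 and -1.76. The -1.76 rests on untreated CD109+/+ arrays at -7.63, below detection, and at 0.13, where the Cd109 signal goes against the label. Without the 2 arrays of that kind, the DMBA difference in CD109+/+ skin was positive for 24 of the 24 genes, beside 8501 of the 16757 genes tested. All these signs share a single remaining untreated CD109+/+ array.

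Of 10 neutrophil genes listed, 9 were tested and 2 were called higher for DMBA in CD109+/+ skin, Mmp8, the collagenase of neutrophils (4.31, SE 0.348, adjusted p = 0.0283, limma), and Cxcr2, their chemokine receptor (3.80, SE 0.403, adjusted p = 0.0498). Neither was called without the 2 doubted arrays, with adjusted p of 0.110 and 0.118. The summed signal of the list was 450 and 289 in CD109+/+ skin after DMBA, 371 and 186 in CD109-/- skin after DMBA, and 79.4 to 158 in the 4 untreated skins, so that the sums of the genotypes overlapped after DMBA. That sum was set by its brightest genes, S100a9, S100a8 and Csf3r, of which S100a8 and S100a9 are also listed among the response genes. Mmp8 and Cxcr2, which add little to it, were lower on both CD109-/- than on both CD109+/+ arrays after DMBA, as were 32.9% of all probes. Csf3r went the other way and was higher on both CD109-/- arrays after DMBA, as were 38.3% of all probes. Mmp8 was -0.82 and -1.19 in CD109+/+ and -3.44 and -3.82 in CD109-/- skin, a difference of -2.63 (SE 0.348, adjusted p = 0.0821, limma). Cxcr2 was 0.92 and 0.55 against -2.11 and -2.47, a difference of -3.02 (SE 0.403, adjusted p = 0.0821). The part of neutrophil content in the Il19 signal was not tested.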

How the data were processed

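The deposited files were the scanner output of 8 one-color Agilent arrays, and the processed signal in them is an intensity, made by the authors with Agilent Feature Extraction 11.5.1.1 (background subtraction per spot). The deposited value table equals that intensity times a single factor on each array, and served as an alternative. Spots of 1 probe were averaged, 237 probes with a non-uniform spot were left out, and 27908 of 29670 RefSeq probes (94.1%) were named through the accession. Signals were log2 values minus the 75th percentile of each array, which was 336 to 524 in intensity. Depth does not apply to arrays, and their number limits the precision.

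A probe was tested if the scanner software flagged it as well above background on both arrays in 1 or more groups. All 4 groups were fitted together in limma 3.58.1 (R 4.3.3), two-sided, with Benjamini-Hochberg adjustment over the 36904 probes and a threshold of 0.05. Counts of genes took the tested probe with the highest mean signal, but each probe of a member was given. The fit was tested on simulated data. The members, gene lists and tests were chosen with earlier results of these data known. Named genes were Cd109, all members, for each list up to 4 genes that passed or else the 2 of smallest p, and the 3 nearest profiles of members that were detected on at least 4 arrays and spanned over 2 on the log2 scale. Response and lymphoid genes given as examples outside this rule were named after their values were seen. Lists of sebaceous gland genes and of innate lymphoid and NK cell genes had 0 genes called in any comparison. Alternatives were other scalings, normexp background correction (offset 50), other filters and probe rules, a replicate block, other variance settings, the methods' t-test, the value table, leaving out each array and, chosen after the data were seen, leaving out the 2 doubted arrays.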

Additional observations from a re-analysis of the deposited data

How the results depend on the processing

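No member gene passed in any comparison with all arrays and the main settings, nor with quantile normalization, either filter, the arrays compared alone, the intensity trend, the value table, the mean of a gene's probes or without the 2 doubted arrays. One, Il19, passed between genotypes after DMBA with median centering (1), normexp (1), the replicate block (1) and the methods' t-test without adjustment (1), and for DMBA in CD109+/+ skin with median centering (1), normexp (1) and, with Il24, that t-test (2); for the difference of the DMBA effects the t-test gave 1. The probes that passed between genotypes after DMBA, 34 in all, came to 90 with median centering (6 higher, 84 lower; 6 and 28 in the main fit), 73 with normexp, 19 among probes detected on all arrays and 0 without a filter, with the arrays compared alone, with the adjusted t-test and without the 2 doubted arrays. In untreated skin, 2 became 4 with quantile normalization and 0 with normexp, the stricter filter, the arrays compared alone, the block, the trend, the adjusted t-test and without the 2 arrays. For DMBA in CD109+/+ skin, 68 became 112 with normexp (108 higher, 4 lower), 5 without a filter, 13 with the stricter one and 0 with the arrays compared alone, the adjusted t-test and without the 2 arrays. For the difference, 0 became 8 with quantile normalization, 2 with median centering, 4 with normexp and 3 with the value table. The t-test without adjustment called 6999, 815, 4127, 2084 and 4641 probes. Leaving out each array gave 0 to 1, 0 to 0 and 0 to 70 probes in the first 3 comparisons, 0 to 0 in the others, and 0 members. Median centering moved the median difference of all probes after DMBA from 0.06 to -0.26, so its splits are relative to that. The causes were not tested.

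Equal replicate numbers shared deviations in some groups only. Over the 6 pairs of groups the deviations of equal numbers correlated from -0.08 to 0.73, and 2 pairs were under 0.1. Pairs among CD109-/- skin after DMBA and the 2 untreated groups gave 0.49 to 0.73. Pairs with CD109+/+ skin after DMBA gave -0.08 to 0.12. In both untreated groups replicate 1 had a Cd109 signal and replicate 2 had none, and the source of the correlations was not tested. With the replicate block, 1686 probes passed between genotypes after DMBA (772 higher, 914 lower), among them both Il19 probes (adjusted p = 0.0471 and 0.0462, limma), 0 in untreated skin, 33 for DMBA in CD109+/+ skin and 1 in CD109-/- skin.

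Differences of all 10 tested member probes were followed, and those that changed sign were uncalled. In untreated skin Il20ra was -0.023 with quantile normalization and -0.066 with normexp, and Il22 was 0.029 with quantile normalization. Without the 2 doubted arrays the untreated difference was 3.06 for Il17a, 1.17 for Il17f, -2.57 for Il20ra and -0.19 for the dimmer Il22ra1 probe. Without them Il20ra was -1.33 for DMBA in CD109+/+ skin, 0.18 in CD109-/- skin and 1.50 for the difference, Il20rb was 0.44 for DMBA in CD109-/- skin and 1.36 for the difference, and the dimmer Il22ra1 probe 0.31 for the difference. Il22 after DMBA was -0.27 with median centering and -0.40 with quantile normalization, for DMBA in CD109+/+ skin -0.095 with normexp and -0.070 with the value table, in CD109-/- skin -0.085 with median centering and -0.22 with quantile normalization, and for the difference -0.27 and -0.43 with the same 2. The dimmer Il22ra1 probe after DMBA was -0.20 with median centering and -0.40 with quantile normalization, for DMBA in CD109-/- skin -0.21 with quantile normalization, and for the difference 0.30 with normexp and 0.11 with the value table. The brighter one after DMBA was 0.041 with normexp, 0.084 with the value table and 0.024 as the mean of both probes, which was 0.014 for DMBA in CD109-/- skin, and for the difference -0.29 with median centering and -0.066 with quantile normalization. Il20rb for DMBA in CD109+/+ skin was 0.039 with median centering.

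Leaving out each array in turn, the untreated difference ranged from -2.09 to 1.94 for Il17a, -1.71 to 0.55 for Il17f, -1.53 to 1.53 for Il20ra, -0.023 to 0.52 for Il24, -0.94 to 0.68 for Il20rb and -0.12 to 0.40 for the dimmer Il22ra1 probe. After DMBA it ranged from -0.57 to 0.020 for Il20rb, -0.14 to 0.25 for Il22 and -0.27 to 0.12 for the brighter Il22ra1 probe. For DMBA in CD109+/+ skin it ranged from -1.33 to 1.73 for Il20ra, -0.92 to 0.70 for Il20rb and -0.16 to 0.23 for Il22, and in CD109-/- skin from -1.92 to 0.18 for Il20ra and -0.95 to 0.44 for Il20rb. For the difference it ranged from -2.60 to 0.46 for Il20ra, -0.95 to 0.66 for Il20rb, -0.091 to 0.30 for Il22, -0.28 to 0.24 for the dimmer Il22ra1 probe and -0.11 to 0.28 for the brighter.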
